A study of Mus musculus with 8 samples.

Results

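Foxq1, Foxf2 and Foxc1 on chromosome 13, and Foxc2 and Foxl1 on chromosome 8, are the 5 genes described here. They sit in a pair of paralogous forkhead box gene clusters, and Foxf1 shares the chromosome 8 window. The genes were chosen by position. On the mouse build mm9 the windows were chr13:31620001-31930000 and chr8:123580001-123680000, of 310 and 100 kb, each with 100 kb flanks. The measurements were H3K27me3 ChIP-seq islands, stretches in which reads were enriched, from livers of male CD-1 (Charles River) mice, 7 weeks old and wild-type. TCPOBOP, which activates the nuclear receptor CAR, was injected at 3 mg/kg, controls got vehicle (corn oil with 1% DMSO), and tissue was taken 3 h later. The series addressed the effect of TCPOBOP on this mark. Fragments of 600 to 1100 bp gave 3 vehicle and 3 TCPOBOP libraries, each from its own liver. Fragments over 1100 bp gave 1 further library for replicate 1 of each treatment, from the same ChIP samples. The labels give digestion to 500 bp for the 600 to 1100 bp libraries and to 200 bp for those over 1100 bp. Fragment length and digestion therefore cannot be told apart between the 2 kinds of library. Of the 6295 to 22077 islands in each of the 8 lists, 3 to 7 touched the chromosome 13 window and 2 or 3 the chromosome 8 window.

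H3K27me3 is laid down by Polycomb repressive complex 2 and marks silenced genes, above all developmental regulators in cells that do not use them. Forkhead box (Fox) proteins are transcription factors with a winged-helix DNA-binding domain. Foxf1, Foxf2, Foxc1, Foxc2 and Foxl1 act mainly in mesenchyme: Foxf1 and Foxf2 in gut and lung mesenchyme, Foxc1 and Foxc2 in mesoderm, somites and vessels, and Foxl1 in the mesenchyme beneath the gut epithelium. Foxq1 acts in hair follicles and in epithelia, including the stomach. Liver is mostly hepatocytes by mass but also holds endothelial and stellate cells, so an island is an average over cell types. In the RefSeq gene order of GRCm38.p6, Foxq1, Foxf2 and Foxc1 follow each other with no other protein-coding gene between them, and Gmds comes next. The chromosome 8 order is Foxf1, Mthfsd, Foxc2 and Foxl1. Mthfsd, which encodes a methenyltetrahydrofolate synthetase domain protein, is thus the 1 protein-coding gene of another kind inside either cluster.

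Polycomb complexes are known to gather at promoters rich in the dinucleotide CG, so promoter sequences are shown with every CG in capitals. RefSeq entries matched 2 of the 5 members, Foxf2 and Foxc1, and Mthfsd is added as the gene between Foxf1 and Foxc2. Each run is 300 bases, 250 before the start and 50 after it, on GRCm38.p6, a different build from the islands. Foxf2 is chr13:31625566-31625865 and Foxc1 chr13:31806396-31806695, both on the plus strand, and Mthfsd chr8:121108288-121108587 on the minus strand.
Foxf2: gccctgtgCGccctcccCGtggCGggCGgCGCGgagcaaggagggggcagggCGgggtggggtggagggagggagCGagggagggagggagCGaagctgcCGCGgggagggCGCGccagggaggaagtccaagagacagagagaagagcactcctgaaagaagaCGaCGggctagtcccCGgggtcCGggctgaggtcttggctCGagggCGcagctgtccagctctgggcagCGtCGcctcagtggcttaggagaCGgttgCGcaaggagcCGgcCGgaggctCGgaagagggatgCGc
Foxc1: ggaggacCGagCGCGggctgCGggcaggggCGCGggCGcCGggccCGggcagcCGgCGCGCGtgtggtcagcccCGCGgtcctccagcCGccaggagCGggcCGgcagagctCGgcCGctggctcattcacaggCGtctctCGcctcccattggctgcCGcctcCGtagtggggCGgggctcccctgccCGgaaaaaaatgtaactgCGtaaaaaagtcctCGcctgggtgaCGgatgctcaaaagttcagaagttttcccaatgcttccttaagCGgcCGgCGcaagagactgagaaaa
Mthfsd: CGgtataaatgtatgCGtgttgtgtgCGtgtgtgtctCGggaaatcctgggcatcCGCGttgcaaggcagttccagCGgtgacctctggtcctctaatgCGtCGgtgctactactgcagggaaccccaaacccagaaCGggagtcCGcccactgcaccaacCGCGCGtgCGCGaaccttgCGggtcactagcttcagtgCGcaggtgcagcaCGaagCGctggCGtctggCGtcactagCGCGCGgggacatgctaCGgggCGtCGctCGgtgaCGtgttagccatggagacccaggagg
The Foxf2 promoter held 27 CG dinucleotides, a number reached by 15.5% of 32851 promoters, and Foxc1 held 32, reached by 9.52%. The Mthfsd promoter was as rich, with 30 (11.7% of promoters), against a median of 7.0 over all promoters. CG reads the same on both strands, so each was counted once.

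The lists differed in extent before any locus was compared. The 6 libraries of 600 to 1100 bp covered 174 to 340 Mb (6.56 to 12.8% of mm9), and both libraries over 1100 bp covered 654 and 676 Mb. No source used here gives read depth, and the label text places all 8 libraries in 1 lane. The window over Alb, the albumin gene that marks hepatocytes, and its neighbour Afp, the alpha-fetoprotein gene, was 0% covered in all 8. Some rows of the lists over 1100 bp may not have been passed on here, so a stretch with no island in them is not read as unmarked.

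Foxf2, Foxc1, Foxf1, Foxc2 and Foxl1 had an island over the start in all 6 livers and in both libraries over 1100 bp, and Foxq1 in 5 of 6 livers. Gene positions were approximate, so cover was read in 10 kb windows centred on each start. The Foxf2, Foxc1 and Foxf1 windows were 100% covered in all 8 libraries. The Foxc2 window was 100% covered in each vehicle liver and 94, 100 and 98% with TCPOBOP. The Foxl1 window was 100% covered in 5 livers and 86% in TCPOBOP replicate 3, where the island ended 3.6 kb to the right of the Foxl1 start. The developmental Fox genes other than Foxq1 were thus covered almost throughout in both treatments.

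**Figure D1:**
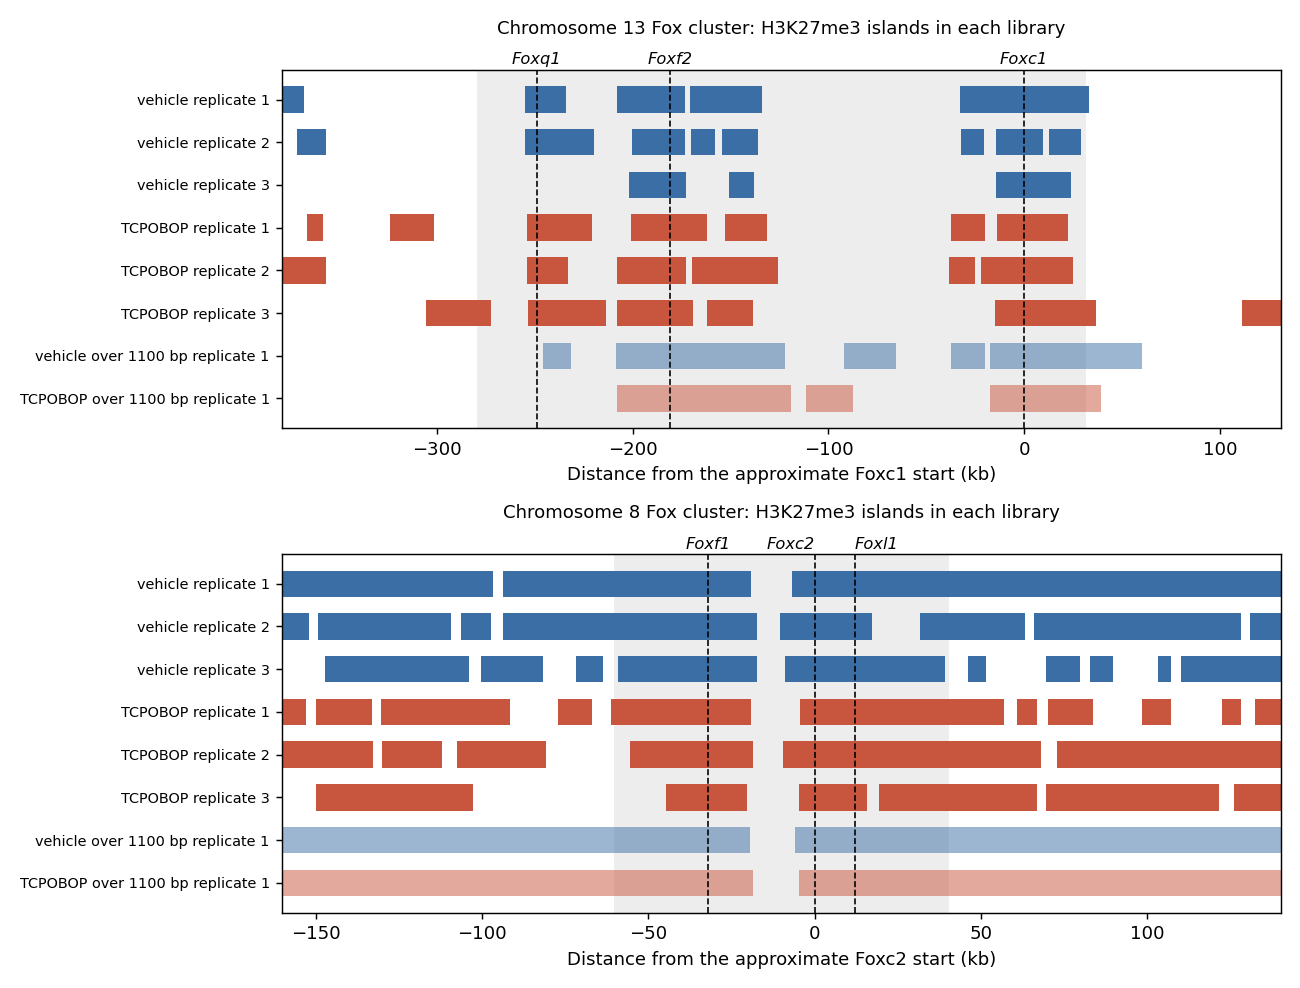
Islands (bars) in 8 libraries across the chromosome 13 window (top) and the chromosome 8 window (bottom), shaded, with 100 kb flanks. The x axis is the distance in kb from the approximate Foxc1 or Foxc2 start, blue is vehicle, red is TCPOBOP, and paler bars are fragments over 1100 bp. Dashed lines mark gene starts. The chromosome 8 islands run on into the flanks and share a gap between Foxf1 and Foxc2, while the chromosome 13 islands stand as separate blocks.

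Foxq1 stood apart from its neighbours. Its 10 kb window was 100, 100 and 0% covered in vehicle replicates 1, 2 and 3, and 98, 98 and 94% in the TCPOBOP livers. Vehicle replicate 3, with 196 Mb covered, was thus the only liver without an island over Foxq1 in the full lists. TCPOBOP replicate 3, with 174 Mb covered, had one. With the lists cut to equal covered length, the window was at 0% in vehicle replicates 1 and 3 and in TCPOBOP replicate 2. Whether the extent of a list bears on the Foxq1 island was not tested. In the lists over 1100 bp the same window was 18% covered with vehicle and 0% with TCPOBOP, while the 600 to 1100 bp libraries of those ChIP samples gave 100 and 98%. The Foxq1 islands were 20.8 to 40.0 kb wide. Their left edges lay 4.4 to 6.0 kb from the start, a spread of a few 400 bp steps of the grid, and their right edges 14.8 to 35.6 kb from it.

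The score that the authors' files give each island ranked Foxq1 below the other genes within each list that held it. The Foxq1 island ranked 8449 of 10057 in vehicle replicate 1 and 2817 of 14748 in replicate 2. In TCPOBOP replicates 1, 2 and 3 it ranked 3051 of 13759, 7078 of 10197 and 1796 of 6295. By score per kb it lay in the weaker part of every list that held it, at 61.2 to 82.8% of the way down. The Foxf2 island ranked 432, 324 and 259 in the vehicle lists and 293, 369 and 254 in the TCPOBOP lists. By score per kb it stood in the top 0.420 to 4.80% of each. The Foxc1 island ranked 185, 245 and 135 with vehicle and 185, 287 and 156 with TCPOBOP. By score per kb it stood in the top 0.136 to 5.97%, highest in vehicle replicate 2, where a 24.0 kb island ranked 20 of 14748. Foxf2 and Foxc1 thus stood near the top of each list by both measures, and Foxq1 in the lower part of each list where it had an island, by score per kb alone.

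On chromosome 8, the Foxf1 island ranked 198, 205 and 241 with vehicle and 239, 250 and 420 with TCPOBOP. Foxc2 and Foxl1 shared 1 island in all 8 libraries, so they are 1 measurement and not 2. That island ranked 48, 464 and 161 with vehicle and 138, 187 and 619 with TCPOBOP. It was 204 kb wide in vehicle replicate 1 and 20.4 kb in TCPOBOP replicate 3, the widest and the narrowest of the 6 livers. In the lists over 1100 bp it was 157 and 230.0 kb wide, and the Foxf1 island 173 and 340.0 kb, which ranked 77 and 22 by score. By score per kb the shared island stood lower in most lists, in the top 1.60 to 12.1% of the 6.

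**Figure D2:**
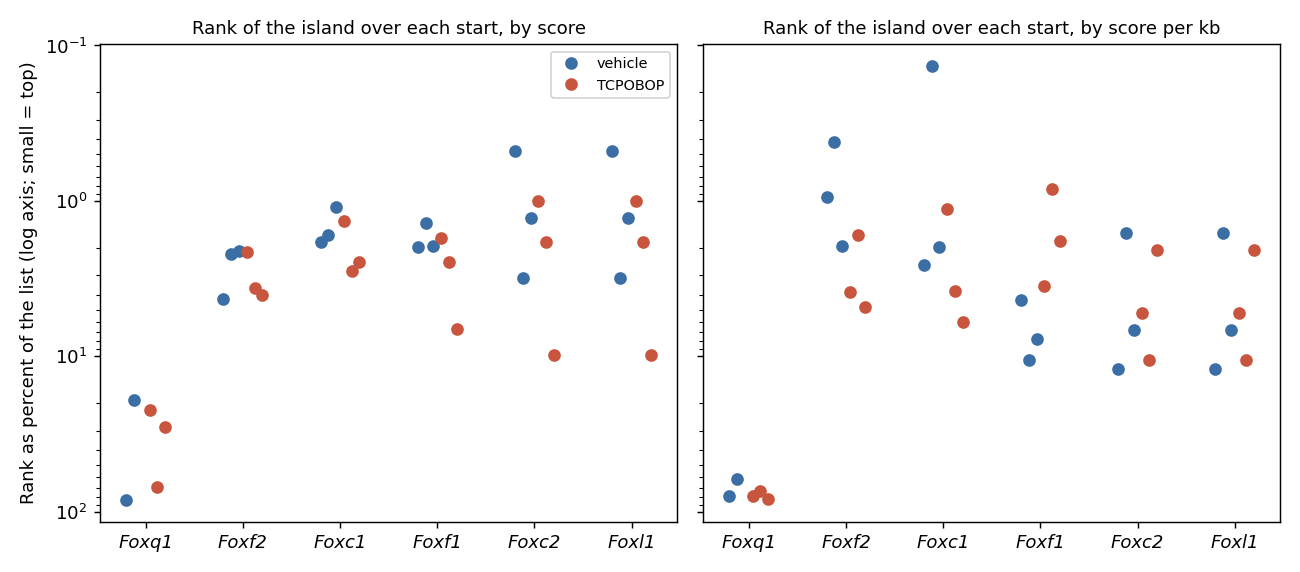
Rank of the island over each gene start within its own list, as a percent of the islands in the list, by score (left) and by score per kb (right). Each point is 1 liver, blue for vehicle and red for TCPOBOP, on a log axis with the top of the list uppermost. Foxq1 has 5 points, at 19.1 to 84.0% by score, and Foxc1 has 6, at 1.09 to 2.81%.

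The facing edges of the Foxf1 island and the Foxc2 island varied little between livers. The right edge of the Foxf1 island fell at 123620800, 123622800 and 123622800 with vehicle and at 123620800, 123621600 and 123619600 with TCPOBOP. These positions span 3.2 kb, and both libraries over 1100 bp, at 123620400 and 123621600, lay inside that span. The left edge of the same island ranged more widely, from 12.8 to 61.6 kb left of the start. It lay 61.6, 61.6 and 27.2 kb out with vehicle and 29.2, 23.6 and 12.8 kb with TCPOBOP, so the treatments overlapped.

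The left edge of the island over Foxc2 and Foxl1 fell between 123629601 and 123635601 in the 6 livers, a spread of 6.0 kb. The gap between both islands was 12.4, 6.8 and 8.4 kb with vehicle, 14.8, 8.8 and 15.6 kb with TCPOBOP, and 13.6 kb in each library over 1100 bp. A stretch of 6.8 kb (chr8:123622801-123629600) was free of islands throughout the 8 libraries. It was the single gap that the 6 livers shared within the 300 kb of window and flanks, without regard to the lists over 1100 bp. In gene order Mthfsd lies between Foxf1 and Foxc2, but its mm9 position was not used here, so the gap was not assigned to it.

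On chromosome 13 a stretch free of islands separated Foxf2 from Foxc1. It measured 101, 104 and 124 kb in vehicle replicates 1, 2 and 3 and 94, 87.6 and 124 kb in the TCPOBOP livers. The 87.6 kb from 31773201 to 31860800 carried no island in any of the 6 livers. The lists over 1100 bp were broken less, with a longest gap, in the rows at hand, of 30.0 kb with vehicle and 70.0 kb with TCPOBOP. They joined the Foxf2 island to its right-hand neighbour as 1 island of 86.4 and 89.2 kb, where the 6 livers listed at least 2. Stretches covered in all 8 libraries were 26.8 kb over Foxf2 (31698801 to 31725600), 12 kb to its right (31748401 to 31760400), 23.6 kb over Foxc1 (31885201 to 31908800) and 9.6 kb beyond (31911601 to 31921200). No stretch around Foxq1 was covered in all 6 livers.

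The windows of the paralogous clusters differed in how much of each was covered. They also differ in length, 310 kb on chromosome 13 and 100 kb on chromosome 8. The percents and the test on them therefore speak for these windows only. Islands covered 50.2, 46.8 and 25.7% of the chromosome 13 window with vehicle and 47.2, 51.7 and 50.1% with TCPOBOP. The chromosome 8 window was 87.6, 78.8 and 90% covered with vehicle and 85.2, 86.8 and 65.6% with TCPOBOP. Chromosome 13 was thus the less covered in 6 of 6 livers, by -15.5 to -64.3 percentage points. The mean within-liver difference, chromosome 13 minus chromosome 8, was -37.0 ± 15.7 percentage points (SD, n = 6, two-sided exact sign-flip permutation p = 0.0312, the smallest that 64 sign assignments can give). In the libraries over 1100 bp it was -24.1 and -34.3. Over the 10 kb gene windows, Foxq1, Foxf2 and Foxc1 against Foxc2 and Foxl1, the difference was -4.28 percentage points (exact sign-flip permutation p = 0.875). Foxf1, not one of the 5 genes, was left out, although its window was 100% covered in all 8 libraries. Foxc2 and Foxl1 were averaged as separate windows although they shared 1 island. The gene-window difference rested on vehicle replicate 3, where it was -33.3 and the Foxq1 window had no cover. Without that liver it was 1.53 (exact sign-flip permutation p = 0.5). Window edges were approximate, and with 20 kb moved in at each side the difference was -33.9.

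In base pairs, the 6 livers shared 72.0 kb of the chromosome 13 window and 52.0 kb of the chromosome 8 window, or 23.2 and 52.0%. None of the 6 covered 110.4 kb (35.6%) of the former and 6.8 kb (6.80%) of the latter. Flanks differed too. On chromosome 8 they were 47.2 to 96.8% (left) and 56.4 to 100% (right) covered in the 6 livers, so the territory ran past the cluster on both sides. On chromosome 13 they were 0 to 30.8% and 0 to 25.2%. The right flank, on the side of Gmds, an enzyme of GDP-fucose synthesis, was 25.2% covered in TCPOBOP replicate 3, by the end of the Foxc1 island and by a separate island, and at most 2.0% covered in the other 5 livers. With flanks included, the within-liver difference was -48.3 percentage points (exact sign-flip permutation p = 0.0312).

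**Figure D3:**
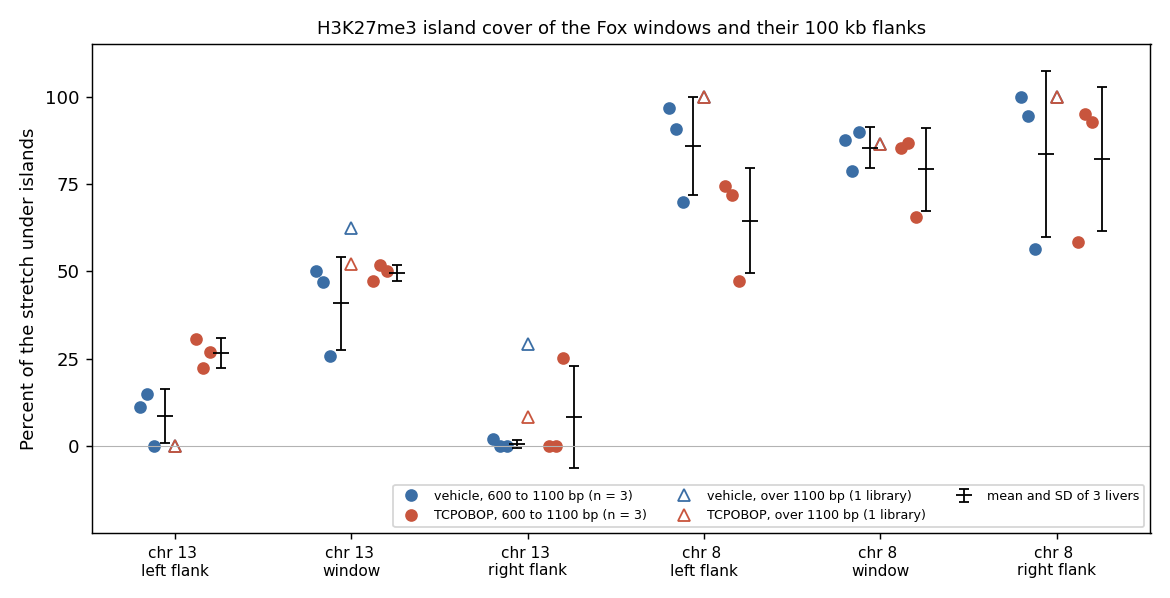
Percent of each Fox window and of its 100 kb flanks under islands. Circles are single livers (600 to 1100 bp), with mean and SD of 3 livers beside them, blue for vehicle and red for TCPOBOP, and triangles are the single libraries over 1100 bp. Every chromosome 8 window value (65.6 to 90%) lies above every chromosome 13 window value of the 6 livers (25.7 to 51.7%).

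Set against the autosomes cut into tiles of the same length, both windows were well covered. The mean cover of the chromosome 8 window over the 6 livers, 82.3%, was reached by 166 of 24712 tiles of 100 kb (0.672%), which averaged 10.3%. In single livers, the share of tiles that reached that liver's own value was 0.190 to 2.50%. The chromosome 13 window, at 45.3%, was reached by 330 of 7968 tiles of 310 kb (4.14%), and in single livers by 1.29 to 9.10%. As classical Polycomb territories, the approximate HoxA, HoxC and HoxD windows were 100, 97.3 to 100 and 97.1 to 100% covered in the 8 libraries. Neither Fox window reached those values in any library.

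Whether TCPOBOP altered the mark at the Fox genes was asked of each window. The chromosome 13 window was 40.9 ± 13.3% covered in vehicle livers and 49.7 ± 2.28% in TCPOBOP livers (SD, n = 3 each), which is 8.77 percentage points higher (exact permutation p = 0.3). The chromosome 8 window was 85.5 ± 5.90% covered in vehicle livers and 79.2 ± 11.8% in TCPOBOP livers (SD, n = 3 each), which is a change of -6.27 percentage points (exact permutation p = 0.5). The treatments overlapped in both windows, and 3 livers against 3 cannot give a two-sided p below 0.1. Each difference rested on 1 liver. Without vehicle replicate 3, which lacked Foxq1, the chromosome 13 difference was 1.16, and without TCPOBOP replicate 3, the shortest list, the chromosome 8 difference turned to 0.533.

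A fit with limma over 36857 bins of 10 kb across the genome called 0 bins higher and 0 lower with TCPOBOP (Benjamini-Hochberg adjusted p at most 0.05), 0% of bins in each direction. Unadjusted, 1232 of the 36857 bins had limma p under 0.05, 283 of them higher and 949 lower with TCPOBOP. Of 81 bins in the Fox windows and flanks, 51 passed the cover filter, and their lowest limma adjusted p was 0.906. Their median difference was 0 percentage points, against -4 over all bins. As a check, the values of each bin were shuffled between livers and cover was then taken away in the TCPOBOP livers. Bins covered almost whole in every liver and set to 0 with TCPOBOP were recovered in 0 of 100 cases. Bins that lost 50 percentage points were also recovered in 0 of 100. The 0 calls thus do not show that bins kept their cover. Without vehicle replicate 3, limma called 21 bins higher (0.0601%) and 473 lower (1.35%) of 34967 in the genome. None of those calls lay among the 51 Fox bins in that fit, too few for these shares to read anything from it.

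In 1 of the 51 bins, and with TCPOBOP lower, the values of the treatments did not overlap. Among all bins fitted this held for 3.74% with TCPOBOP lower and 1.23% with TCPOBOP higher. The bin, chr8:123570001-123580000, lies in the left flank on the Foxf1 side. It was 100, 100 and 64% covered with vehicle and 44, 0 and 0% with TCPOBOP (difference -73.3 percentage points, limma SE 22.3, limma adjusted p = 0.906). The whole of this left flank, with the bin, was 100% covered in both libraries over 1100 bp, vehicle and TCPOBOP. Those libraries came from the ChIP samples of replicate 1, for which the shorter fragments gave 100% with vehicle and 44% with TCPOBOP in this bin.

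The left flank of the chromosome 13 window, on the Foxq1 side, went the other way. It was 11.2, 14.8 and 0% covered with vehicle and 30.8, 22.4 and 26.8% with TCPOBOP, without overlap. Of 12012 tiles of 100 kb with any cover, 1.35% were higher with TCPOBOP without overlap and 4.07% lower. The islands behind the TCPOBOP values overlapped in part, and no stretch of the flank lay under islands in all 3 TCPOBOP livers. TCPOBOP replicate 1 had islands at 31532801 to 31540800 and 31574801 to 31597600. Replicate 2 had one from 31502401 to 31542400, and replicate 3 one from 31593201 to 31626400. Vehicle replicates 1 and 2 had islands at 31500001 to 31531200 and 31527601 to 31542400, which both overlapped that of TCPOBOP replicate 2. By score per kb the TCPOBOP islands stood 47.5 to 96.0% of the way down their lists, and the vehicle islands 97.7 and 78.8%. Each list over 1100 bp covered 0% of this flank. With the lists cut to equal covered length the values were 0, 0 and 0% with vehicle and 0, 22.4 and 26.8% with TCPOBOP, so the treatments then overlapped. Window and flanks together were 33.1, 31.4 and 15.6% covered with vehicle and 34.7, 35.8 and 40.6% with TCPOBOP, again without overlap (10.4 percentage points higher, exact permutation p = 0.1, the smallest possible). Without vehicle replicate 3 the difference was 4.84 (exact permutation p = 0.2). Of 3615 tiles of 510 kb, 1.3% were higher with TCPOBOP without overlap and 4.56% lower. The corresponding chromosome 8 values overlapped, at 94.8, 88.0 and 72.1% with vehicle and 72.7, 84.7 and 68.5% with TCPOBOP.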

How the data were processed

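H3K27me3 ChIP-seq islands were analysed in 8 libraries. The authors deposited 1 list per library with a score per island, their own value for that list, and replicates were not pooled. Per the submitters' processing notes, Bowtie2 2.3.2, SICER 1.1 and the build mm9 were used, without stated roles. Island ends fell on a 400 bp grid, with gaps of at least 2800 bp. Scores were only ranked within a list or used as a filter. No read counts were in the lists, so no counting interval was computed. Coordinates are mm9 and 1-based unless GRCm38.p6 is named. Members and gene lists were chosen with earlier results of these data known, and gene and comparison windows were approximate mm9 positions from general knowledge. The genes named are the 5 members, Foxf1, and Foxa1, Foxa2, Foxa3, HoxA, HoxC, HoxD, Alb and Afp for comparison. Named bins are those whose treatments did not overlap.

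Cover was the percent of a window under islands. Treatments were compared by an exact permutation test (two-sided, 20 labellings) and clusters by an exact sign-flip test within livers (64 assignments). limma 3.58.1 (R 4.3.3, variance trend, Benjamini-Hochberg) was fitted to 10 kb bins with 50% cover or more in at least 2 of 6 libraries and tested on simulated data. The rest was computed in Python 3.11.15 with pandas 2.3.3, numpy 2.4.6 and matplotlib 3.10.9. Alternatives were a score minimum of 84.6, lists cut to 174 Mb, ChIP samples merged, shifted edges, other limma scales and filters, a replicate block, and leaving out each liver.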

Additional observations from a re-analysis of the deposited data

How the results depend on the processing

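The difference between chromosome 13 and chromosome 8 cover kept its sign under 12 other settings of the islands, windows and livers. It ranged from -41.3 to -31.6 percentage points with 1 liver left out, where 5 pairs cannot give an exact sign-flip p below 0.0625. In gene-centred windows it was -4.28 (exact sign-flip permutation p = 0.875), and with 1 liver also left out, which was chosen after seeing the data, it ranged from -6.33 to 1.53, positive without vehicle replicate 3. The TCPOBOP difference on chromosome 13 ranged from 1.16 to 13.4 with 1 liver left out and that on chromosome 8 from -10.1 to 0.533, positive without TCPOBOP replicate 3. limma called 0 to 21 bins higher and 0 to 473 lower with 1 liver left out, all of the calls in the fit that lacks vehicle replicate 3. What causes these shifts was not tested. Every other limma alternative called 0. Replicate numbers do not mark a shared animal, and the deviations of livers with the same number had correlations of 0.0266, 0.0158 and 0.0599. For livers with different numbers the correlations ran from -0.0572 to 0.0326. With the replicate block limma called 0 bins higher and 0 lower (lowest limma adjusted p = 0.786). At equal covered length, the Foxq1 window kept an island in 3 of 6 livers and averaged 48.7% cover, against 81.7%. The other gene windows moved by less than 1 percentage point under each island filter and merge. Total reads were unknown, so depth could not be set beside any value.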

Other observations

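Foxa1, Foxa2 and Foxa3, which encode pioneer transcription factors of hepatocytes, were read in approximate windows of 20 kb. The Foxa3 window was 0% covered in all 8 libraries. The Foxa1 window was 90, 82 and 0% covered with vehicle and 100, 0 and 0% with TCPOBOP, so livers of both treatments ranged from none to nearly full cover. The Foxa2 window was 98, 54 and 20% covered with vehicle and 16, 16 and 0% with TCPOBOP. These values did not overlap between treatments, which held with TCPOBOP lower for 3.25% of 37561 tiles of 20 kb with any cover. In the libraries over 1100 bp, Foxa1 was 100 and 27% covered and Foxa2 60 and 20%, vehicle first.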
